A study of Homo sapiens with 44 samples.

Results

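The genes described here are 10 of the 19 human Wnt ligands, namely WNT2, WNT2B, WNT3, WNT3A, WNT4, WNT5A, WNT5B, WNT6, WNT8A and WNT11. They were chosen by symbol, matched to Ensembl identifiers through GENCODE, and followed through all 12 groups of a cardiac differentiation of H1, a human embryonic stem cell line. All 10 were found among 60499 listed genes, and all 10 passed the filter on low counts with 22955 genes in all. Each of the 44 libraries is total RNA of 1 culture well of this single line.

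The pluripotent group (n = 3) was maintained on the laminin LN-521. From day 0 on, wells were coated with both LN-521 and LN-221. At day 0 (n = 3) the wells held confluent cells in Nutristem medium. Days 1 and 3 (n = 3 each) had RPMI with insulin-free B27 and CHIR99021, an inhibitor of the kinase GSK3. At day 5 (n = 5) the same basal medium held IWP2, an inhibitor of Wnt production added at day 3. Days 7 and 9 (n = 5 each) had insulin-free B27 alone, and days 11 (n = 5), 14, 20, 30 and 90 (n = 3 each) had CTS B-27. The wells share 1 cell line and carry biological replicate numbers, so the p-values measure the spread between wells of that line. Coating, medium or added compound changed along with the day on reaching days 0, 1, 5, 7 and 11, so their parts in those steps, and in longer spans across them, cannot be told apart.

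Wnt ligands are secreted glycoproteins that bind Frizzled receptors. Canonical ligands also engage the co-receptors LRP5 or LRP6 and stabilise beta-catenin, which CHIR99021 does inside the cell without a ligand. Non-canonical ligands act through receptors such as ROR2 and RYK on cell polarity and calcium. In the embryo canonical Wnt signals are needed to form the primitive streak and mesoderm, and later have to be low for cardiac specification, in which WNT11 and WNT5A are known to take part. WNT2, WNT2B, WNT3, WNT3A, WNT6 and WNT8A were counted as canonical (6 genes) and WNT4, WNT5A, WNT5B and WNT11 as non-canonical (4 genes). This is the textbook grouping, and the same ligand can act either way depending on the receptors of the cell.

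Before secretion the enzyme PORCN attaches a fatty acid to 1 conserved serine of the Wnt protein, and IWP2 inhibits PORCN. The coding sequence around that serine is shown for 6 ligands with large changes in these data, read 5′ to 3′ from the GENCODE 29 transcripts with the serine codon in capitals.
WNT3A: tgccacgggctgTCGggcagctgc
WNT8A: tgtcatggcatcTCTgggagctgc
WNT5A: tgccatggggtgTCCggctcatgt
WNT5B: tgccacggcgtcTCGgggtcctgc
WNT11: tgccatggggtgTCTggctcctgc
WNT2: tgccacggggtgAGCggctcatgt
On GRCh38 the WNT3A run lies at chr1:228059019-228059042 on the plus strand in exon 4 of 4, and encodes serine 209 of 352 residues. WNT8A has it at chr5:138090561-138090584 (plus, exon 6 of 6, serine 186). WNT5A has it at chr3:55470494-55470517 (minus, exon 6 of 6, serine 244), and WNT5B at chr12:1645827-1645850 (plus, exon 5 of 5, serine 223). WNT11 has it at chr11:76191800-76191823 (minus, exon 4 of 5, serine 215), and WNT2 at chr7:117297820-117297843 (minus, exon 4 of 5, serine 212). All 10 ligands hold the serine codon in such a run, in both classes. The most alike pairs of coding sequences were WNT3A with WNT3 (81.6% identical), WNT5A with WNT5B (81.1%) and WNT2 with WNT2B (70.4%). The longest identical run in any pair of members was 38 bases, against reads of 150 bp.

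Levels of 1 gene across days are given as CPM, counts relative to the TMM-scaled size of the library, with the SD over wells. Total counts per library ranged from 6937136 to 33498022, so that 3 counts, taken as the floor, stand for 0.0919 to 0.410 CPM. The 3 libraries under 12e6 counts are well 2 of day 14, well 2 of day 20 and well 10 of day 30. Differences are log2 fold changes with their standard error (SE) from edgeR's quasi-likelihood test, with Benjamini-Hochberg adjustment over all 22955 genes. A gene was called when the adjusted p was under 0.05 and the log2 fold change at least 1 in either direction. Streak and cardiomyocyte markers went with the labels. For 4 primitive streak markers, summed TPM (values scaled by the authors for transcript length) was 0.13 to 0.80 before day 1. It was 235 to 432 at day 1 and 48.7 to 105 at day 3. Summed TPM of 5 cardiomyocyte markers was at least 1434 in each well from day 7 on. The cultures were mixed: 5 endoderm and liver markers summed higher than these in well 2 of day 9 (1756 against 1434) and well 2 of day 11 (4081 against 2547). These are whole wells, so fewer cells of a type and less RNA per cell cannot be told apart.

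**Figure D1:**
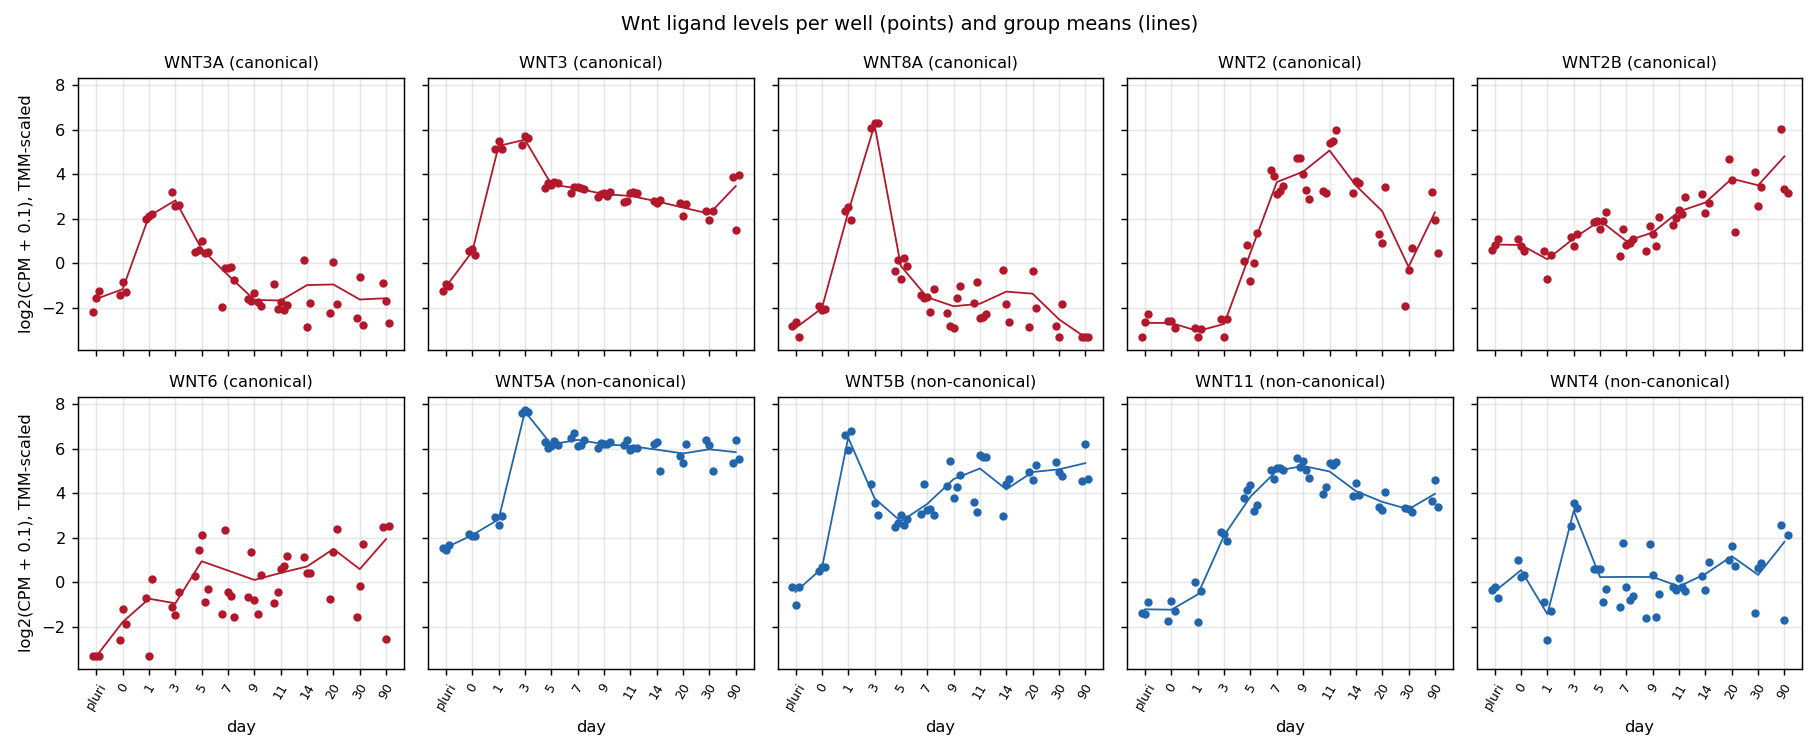
Level of each ligand as log2(CPM + 0.1) per well (points) and for the group mean (lines), by day on the x axis (pluri, pluripotent cells), canonical ligands in red and non-canonical in blue. WNT5B is highest at day 1 (90.6 CPM), WNT8A (75.0 CPM) and WNT5A (204 CPM) at day 3, WNT11 at day 9 and WNT2 at day 11.

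WNT3 (chr17:46762506-46833154, minus strand) is the ligand that mouse embryos need for the primitive streak. It was the only member that edgeR, fitted to all 12 groups, called at day 0 against pluripotent cells. It was at 0.321, 0.429 and 0.401 CPM in the pluripotent wells and at 1.38, 1.46 and 1.21 CPM at day 0. The difference was 1.79 (SE 0.35, adjusted p = 0.00191), with groups that do not overlap. With limma on log2(TPM + 1) it was 0.21 and was not called. WNT5B (1.18), WNT4 (1.05), WNT5A (0.58), WNT8A and WNT6 also had every day 0 well above every pluripotent well, without a call. With only the groups compared, edgeR called WNT5B (1.21, adjusted p = 0.00745) and WNT4 (1.08, adjusted p = 0.0159) too. At day 1 the WNT3 wells held 35.7, 45.2 and 35.2 CPM, a further rise of 4.84 (SE 0.33, adjusted p = 1.50e-13). Day 3 (39.7, 52.6 and 49.0 CPM) overlapped day 1. At day 5 the 5 wells lay between 10.2 and 12.5 CPM, below every day 3 well, and the difference was -2.02 (SE 0.24, adjusted p = 6.54e-08). From there the group means went from 11.6 ± 0.914 CPM (SD, n = 5) at day 5 to 4.60 ± 0.739 CPM (SD, n = 3) at day 30, with no step called. WNT3 thus stayed above its day 0 level in every well of every later group, and was called higher at day 9 than at day 0 by 2.66 (SE 0.29, adjusted p = 1.22e-09).

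WNT3A (chr1:228007051-228061260, plus strand), a ligand of the posterior streak, followed the same early course at lower levels. Its wells held 0.268, 0.466 and 0.311 CPM at day 0 and 3.94, 4.34 and 4.51 CPM at day 1. The rise was 3.59 (SE 0.67, adjusted p = 0.000112). Day 3 held 9.18, 5.81 and 6.08 CPM, all above day 1, but that step was not called. The fall to 1.46 ± 0.245 CPM (SD, n = 5) at day 5 was -2.27 (SE 0.52, adjusted p = 0.00149). From day 9 on the group means were 0.215 to 0.418 CPM and the groups overlapped with day 0.

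WNT8A (chr5:138083892-138092365, plus strand), another ligand known from early mesoderm, had the narrowest course of the 10. It was at 0 to 0.168 CPM in pluripotent and day 0 wells, with no more than 5 counts in any day 0 well. Day 1 wells held 4.99, 5.69 and 3.77 CPM, a rise of 4.99 (SE 0.62, adjusted p = 1.82e-07). Day 3 wells held 67.3, 78.1 and 79.5 CPM, a second rise of 3.96 (SE 0.51, adjusted p = 1.94e-07). The day 3 mean was 15.6 times that of the next group, and all 3 wells lay above every well of every other group. At day 5 the 5 wells held 0.514 to 1.09 CPM. That fall of -6.50 (SE 0.47, adjusted p = 2.74e-12) was the largest of any member between neighbouring days. Day 7 was lower again by -1.70 (SE 0.47, adjusted p = 0.0218), at 10 counts or fewer per well. That call was lost without well 2 of day 5 (-1.62, adjusted p = 0.0544), without well 4 of day 5 (-1.58, adjusted p = 0.0633) and without well 3 of day 7 (-1.53, adjusted p = 0.0738). No count of WNT8A was found in the 3 wells of day 90. Day 90 against day 9 was called lower (adjusted p = 0.0114), at no more than 12 counts in any day 9 well, too few to give a fold.

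WNT2 (chr7:117275451-117323289, minus strand), a canonical ligand known from early heart and lung mesoderm, was first seen above the floor in several wells at day 5, when the streak ligands were lower. From the pluripotent wells to day 3 no well exceeded 0.109 CPM. The 5 wells of day 5 held 0.968, 1.68, 0.471, 0.913 and 2.49 CPM. Against day 3, which had at most 2 counts per well, the ratio of summed counts per library size was 26.3 (95% counting interval 10.1 to 97.5). edgeR called this rise with an adjusted p of 0.00224. Day 7 wells held 18.2, 8.51, 9.58, 10.9 and 15.3 CPM, above all day 5 wells by 3.24 (SE 0.57, adjusted p = 0.000131). The mean was highest at day 11 (33.6 ± 23.7 CPM, SD, n = 5), where the wells fell into a low and a high set described below. The ratio of summed counts between day 9 and day 0 was 299 (95% counting interval 128 to 923).

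After day 14 WNT2 was lower and uneven. Its wells held 2.42, 1.78 and 10.8 CPM at day 20, 0.163, 0.703 and 1.53 CPM at day 30, and 9.28, 3.83 and 1.29 CPM at day 90. The step to day 30 was -2.70 (SE 0.77, adjusted p = 0.0467). Without well 3 of day 20, the high one, it was -1.38 (adjusted p = 0.356). It also missed the threshold without well 1 (-2.16, adjusted p = 0.215) or well 10 of day 30 (-2.65, adjusted p = 0.0956), and without the 3 shallow libraries (-2.99, adjusted p = 0.0845). The step to day 90 was 2.60 (SE 0.77, adjusted p = 0.0294) with overlapping wells. That call was lost without well 1 (2.07, adjusted p = 0.129) or well 10 of day 30 (2.56, adjusted p = 0.0542), and without well 2 of day 90 (1.65, adjusted p = 0.262). Day 90 was below day 9 by -1.84 (SE 0.64, adjusted p = 0.0199), a call lost without well 4 (-1.70, adjusted p = 0.0762) or well 5 of day 90 (-1.41, adjusted p = 0.134). Each of these 3 late calls of WNT2 thus rests on single wells.

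WNT2B (chr1:112466541-112530165, plus strand), the close relative of WNT2, was called by edgeR in 0 of 11 steps, with an unadjusted p under 0.05 in 3. DESeq2 called it in 0 as well. With only the groups compared, edgeR called WNT2B higher at day 3 than at day 1 (1.01, adjusted p = 0.0344). Its group means lay between 1.04 ± 0.460 CPM at day 1 (SD, n = 3) and 28.0 ± 32.0 CPM at day 90 (SD, n = 3). Over the longer span it was higher at day 90 (64.9, 10.2 and 8.96 CPM) than at day 9 (1.36 to 4.16 CPM) by 3.47 (SE 0.51, adjusted p = 6.87e-07). All day 90 wells lay above all day 9 wells, and well 2 of day 90 stood far above the other two. WNT2B overlaps the protein-coding gene ST7L on the other strand (median 289.5 counts per library). Whether the deposited counts use the strand is not given in the sources used here, so reads of the overlapping stretch may belong to either gene.

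WNT6 (chr2:218859821-218874233, plus strand), a ligand known from epithelia and epicardium, was also called by edgeR in 0 of 11 steps, with an unadjusted p under 0.05 in 1. With only the groups compared, edgeR called WNT6 higher at day 5 than at day 3 (2.15, adjusted p = 0.0410). No count was found in the 3 pluripotent wells. The day 0 wells held 0.0671, 0.333 and 0.173 CPM, a mean at least 1.78-fold higher than a floor of 3 counts per pluripotent library. edgeR did not call that step (adjusted p = 0.220), while DESeq2 did (adjusted p = 0.0319). The highest group mean was 3.75 ± 3.19 CPM at day 90 (SD, n = 3), where the wells held 5.47, 0.0696 and 5.71 CPM and overlapped those of 10 other groups. The wells of day 90 alone thus spanned more than the group means of all days.

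WNT5B (chr12:1529891-1647243, plus strand), a non-canonical ligand, had the largest rise of any member at day 1. Its wells held 1.31, 1.50 and 1.52 CPM at day 0 and 99.2, 62.4 and 110 CPM at day 1, a difference of 5.97 (SE 0.64, adjusted p = 5.99e-09). At day 3 they held 21.0, 11.9 and 7.92 CPM, lower by -2.74 (SE 0.54, adjusted p = 0.000133). The day 5 mean was the lowest after day 0 (6.56 ± 1.02 CPM, SD, n = 5). Later group means lay between 11.4 ± 5.63 CPM at day 7 (SD, n = 5) and 40.9 ± 29.1 CPM at day 90 (SD, n = 3), with no step called. Day 9 was above day 0 by 4.10 (SE 0.57, adjusted p = 2.12e-07). WNT5B overlaps the protein-coding gene FBXL14 on the other strand (median 174.5 counts per library), with the same limit as for WNT2B.

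WNT5A (chr3:55465715-55490539, minus strand), the close relative of WNT5B and the main ligand of ROR2, had its largest rise 1 sampled day later. Its wells held 2.66 to 3.10 CPM in pluripotent cells and 4.16 to 4.43 CPM at day 0. Day 1 wells held 7.51, 5.85 and 7.69 CPM, all above day 0, but that step was not called (0.72, SE 0.28, adjusted p = 0.0592). Day 3 wells held 197, 217 and 200 CPM. The difference of day 3 from day 1 was 4.86 (SE 0.31, adjusted p = 9.32e-15), between groups that lie far apart. Day 5 wells held 64.7 to 80.6 CPM, lower by -1.48 (SE 0.23, adjusted p = 8.57e-06). From day 5 to day 90 the group means stayed between 55.3 ± 17.6 CPM (SD, n = 3, day 20) and 84.5 ± 14.3 CPM (SD, n = 5, day 7), with overlapping wells and no step called. On TPM the late means were less even, at 7.25 ± 1.34 for day 30 and 3.83 ± 2.59 for day 90, with overlapping wells. The day 0 mean was 0.577 ± 0.106 TPM (SD, n = 3 for each of these days). WNT5A therefore kept a level far above the 4.26 ± 0.151 CPM of day 0 (SD, n = 3), and was higher at day 9 than at day 0 by 4.11 (SE 0.29, adjusted p = 2.92e-14).

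WNT11 (chr11:76186325-76210736, minus strand), a non-canonical ligand that promotes cardiac specification in frog and bird embryos, rose in 3 consecutive steps. It was at 0.585 ± 0.363 CPM (SD, n = 3) at day 1. Day 3 wells held 4.69, 4.43 and 3.51 CPM, a rise of 2.84 (SE 0.42, adjusted p = 1.82e-06). Day 5 wells held 9.13 to 20.6 CPM, up by 1.77 (SE 0.34, adjusted p = 0.000218), and day 7 wells 25.2 to 35.5 CPM, up by 1.17 (SE 0.27, adjusted p = 0.00445). No well of 1 of these days reached into the range of the next. The highest mean was 37.5 ± 8.56 CPM at day 9 (SD, n = 5), overlapped by days 7 and 11. Day 9 was above day 0 by 6.82 (SE 0.47, adjusted p = 1.31e-14). Day 90 (12.6, 24.1 and 10.2 CPM) was below all day 9 wells by -1.26 (SE 0.33, adjusted p = 0.00197).

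WNT4 (chr1:22117305-22143969, minus strand), known from kidney and gonad development, had its highest mean at day 3. Its wells held 0.438, 0.0643 and 0.311 CPM at day 1 and 5.76, 11.7 and 10.1 CPM at day 3, a rise of 5.06 (SE 0.93, adjusted p = 5.65e-05). Day 5 wells held 0.435 to 1.43 CPM, lower by -3.08 (SE 0.69, adjusted p = 0.00120). The difference of day 1 from day 0 was -2.31 (SE 0.88, adjusted p = 0.0541), just outside the threshold. DESeq2 called it (-2.33, adjusted p = 0.0267), as did edgeR with a filter of 1 CPM in 3 libraries (-2.30, adjusted p = 0.0481) and with only the groups compared (-2.31, adjusted p = 0.00288). At day 90 (5.83, 0.209 and 4.26 CPM) WNT4 had 1 well above the lowest well of day 3 and was called above day 9 by 1.69 (SE 0.69, adjusted p = 0.0491) with overlapping wells. That call was lost under 9 of 16 other settings, among them without well 1 (1.43, adjusted p = 0.115), well 2 (1.72, adjusted p = 0.0694), well 3 (1.43, adjusted p = 0.114) or well 4 of day 9 (1.53, adjusted p = 0.104), and without well 2 (1.07, adjusted p = 0.325) or well 5 of day 90 (1.50, adjusted p = 0.149).

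Counted over the 10 ligands with edgeR, the early steps held most of the changes. At day 0 against pluripotent cells 1 member was called higher and 0 lower (2 had an unadjusted p under 0.05, both higher), where 2.73% of all tested genes were called higher and 0.183% lower. At day 1 against day 0, 4 rose and 0 fell (WNT3A, WNT3, WNT8A and WNT5B), where 3.86% of all genes were called higher and 9.66% lower. At an unadjusted p under 0.05 that step had 6 members, with WNT4 the 1 that was lower, and DESeq2 called WNT4 too. At day 3 against day 1, 4 rose (WNT8A, WNT5A, WNT11 and WNT4) and 1 fell (WNT5B), where 11% of all genes were called higher and 6.8% lower. At day 5 against day 3, when IWP2 had replaced CHIR99021, 2 rose (WNT2 and WNT11) and 5 fell (WNT3A, WNT3, WNT8A, WNT5A and WNT4), where 5.75% of all genes were called higher and 4.34% lower. Both classes were among those that fell. At day 7 against day 5, 2 rose (WNT2 and WNT11) and 1 fell (WNT8A), where 2.74% of all genes were called higher and 0.906% lower.

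The median log2 fold change of the 10 was 1.10 at day 1 against day 0, beside -0.03 for all tested genes. It was 1.04 at day 3 against day 1, beside 0.07, and -1.26 at day 5 against day 3, beside -0.02. Steps that follow each other share the wells of the day between them, with opposite sign. At day 1 against day 0 the canonical ligands had a median of 2.48 and the non-canonical ligands 0.77. At day 3 against day 1 the order was the other way, with 0.86 and 3.85. At day 5 against day 3 the medians were -0.59 and -1.26. The difference between classes was not tested.

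From day 7 to day 20 edgeR called 0 of 10 members in each of 4 steps. At day 9 against day 7 the background was 1.28% and 2 members had an unadjusted p under 0.05. At day 11 against day 9 it was 1.63% with 1 such member, at day 14 against day 11 0.697% with 2, and at day 20 against day 14 0.0479% with 0. DESeq2 also called 0 members in these steps. At day 30 against day 20, 1 member fell (WNT2) and 0 rose (1 had an unadjusted p under 0.05), where 1.26% of all genes were called lower and 0.758% higher. At day 90 against day 30, 2 rose (WNT3 and WNT2) and 0 fell (4 had an unadjusted p under 0.05, with WNT8A the 1 that was lower), where 2.65% of all genes were called higher and 2.44% lower.

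Over the long spans, day 9 against day 0 had 5 members higher (WNT3, WNT2, WNT5A, WNT5B and WNT11) and 0 lower, where 17.1% of all genes were called higher and 14.6% lower. The same 5 had an unadjusted p under 0.05, and DESeq2 called WNT6 higher besides (2.36, adjusted p = 0.0475). The median of the 10 was 2.49, beside 0.08 for all genes. At day 90 against day 9, 2 were higher (WNT2B and WNT4) and 3 lower (WNT8A, WNT2 and WNT11), where 11.9% of all genes were called higher and 12% lower. The median of the 10 was 0.26, beside -0.02 for all genes.

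**Figure D2:**
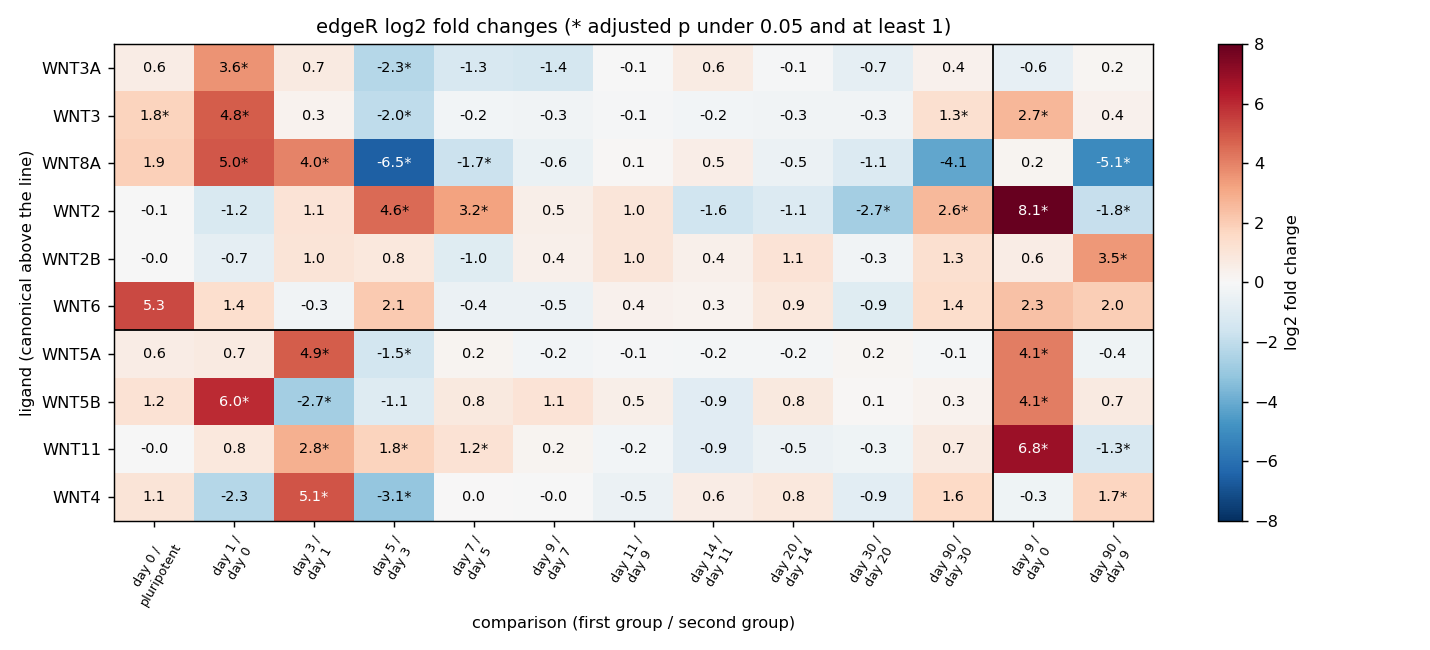
log2 fold change of each ligand (rows, canonical above the line) in the 13 comparisons (columns, the 2 long spans right of the line), with calls marked by a star. Calls cluster in the first columns, and the columns from day 9 / day 7 to day 20 / day 14 hold none. Values of genes at or near 0 counts, such as WNT6 at day 0 and WNT8A at day 90, depend on the prior count.

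Different genes were compared on TPM, which corrects for transcript length. The summed TPM of the 10 ligands was 1.30 ± 0.182 in pluripotent wells, 2.35 ± 0.172 at day 0, 50.1 ± 8.75 at day 1 and 93.1 ± 7.93 at day 3 (SD, n = 3 each). It was 20.3 ± 4.72 at day 5 (SD, n = 5), and later group means were 18.4 to 31.3 TPM. The 10 genes held 75.4 ± 1.66% of the summed TPM of all 19 Wnt ligands in pluripotent wells (SD, n = 3) and 97.5 ± 0.111% at day 3 (SD, n = 3). The lowest group share was 70.8 ± 4.50% at day 0 (SD, n = 3). The 10 were chosen with earlier results of these data known, so their high share describes the choice and is not a finding.

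Within this sum the leading ligand changed with the day. WNT5A led in pluripotent wells at 0.387 TPM. WNT5B held 74.7% of the day 1 sum at 37.4 TPM, ahead of WNT3 with 7.84 TPM. At day 3 WNT8A (38.3 TPM) and WNT5A (33.3% of the sum) led, followed by WNT3 (11.5 TPM). WNT5A led again at day 5 (8.66 TPM), in all 5 wells. From day 7 to day 14 no ligand led in every well. At day 7 the means of WNT11 (8.96 TPM) and WNT5A (8.84 TPM) were close, and WNT5A led in 3 of the 5 wells. At day 9 WNT11 (9.43 TPM) led in 3 of 5 wells. At day 11 WNT11 (7.96 TPM), WNT5B (7.86 TPM) and WNT5A (7.02 TPM) had close means, with WNT5A leading in wells 1 and 2 and WNT5B in wells 5, 6 and 7. WNT5A led in 2 of 3 wells at day 14 (8.97 TPM), and WNT5B in all wells of days 20, 30 and 90 (10.4, 10.3 and 7.33 TPM). WNT8A at day 3 was the only canonical ligand to lead in any of the 44 wells.

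The canonical share of the summed TPM was above 50% at day 3 only, at 52.9%, 54.9% and 59.2% in the 3 wells. It was 28.5 ± 3.77% in pluripotent wells, 29.9 ± 4.79% at day 0 and 23.8 ± 7.77% at day 1 (SD, n = 3 each). The 4 days with 5 wells had shares of 22.2 ± 2.26% (day 5), 19.1 ± 2.13% (day 7), 18.8 ± 3.56% (day 9) and 25.4 ± 6.24% (day 11; SD, n = 5 each). On TPM, and with WNT4 as non-canonical, the day 3 wells lay above all wells of the other groups. The share then came to 22.7 ± 3.09% (day 14), 19.6 ± 0.436% (day 20) and 12.2 ± 5.12% (day 30; SD, n = 3 each). At day 90 the wells ran from 5.45% over 27.2% to 44.5%, so no level can be given for that day. The day 3 share depends on the correction for length: on CPM, where a long transcript counts for more, the wells held 34.2%, 36.1% and 38.3%. On that scale day 3 did not stand apart, with pluripotent wells at 29.6% to 37.4%, well 2 of day 1 at 44.9% and well 2 of day 90 at 53.3%. WNT8A had 75.0 CPM for its 38.3 TPM at day 3, where WNT5A had 204 CPM at a lower TPM. These shares are descriptions, with no test.

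**Figure D3:**
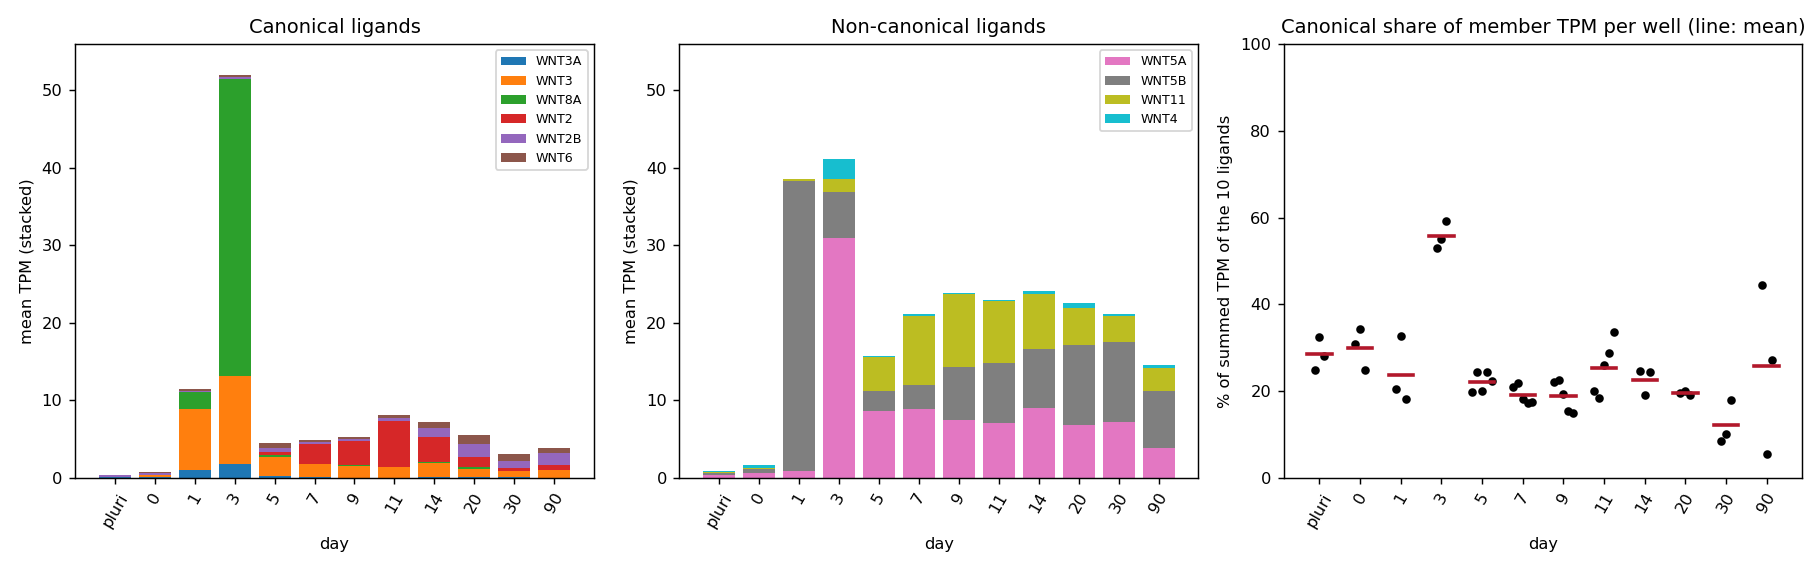
Mean TPM of the canonical (left) and non-canonical ligands (middle), stacked by gene for each day, and the canonical share of the summed TPM per well (right, points, with the mean as a line). The canonical sum stands out at day 3, where WNT8A makes up 38.3 of 52.0 TPM, and the share is above 50% in those 3 wells.

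Wells of days 7, 9, 11 and 90 are described one by one here, chosen after their values were seen. At day 7 well 10 had more WNT6 (5.00 CPM against 0.244 to 0.646 in the other 4 wells), WNT4 (3.28 against 0.358 to 0.754 CPM) and WNT5B (21.4 against 7.98 to 9.82 CPM), and less WNT11 (25.2 against 32.6 to 35.5 CPM). The day 9 well of the same number was likewise highest for WNT6 (2.44 CPM), WNT4 (3.21 CPM) and WNT5B (43.4 CPM). Both wells had the lowest summed TPM on their day of the 5 endoderm and liver markers (99.3 and 142), of the 5 fibroblast and epicardium markers (41.3 and 60.4) and of the 4 endothelium markers (13.1 and 21.3). Well 1 of day 7 was close to well 10 in the endoderm and liver markers (111), yet had WNT6 at 0.278 and WNT4 at 0.358 CPM. None of the endoderm and liver markers was at 0 in every well of those days. The part of other cell types in these differences was not tested.

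At day 11 wells 1 and 2 stood apart from wells 5, 6 and 7. WNT2 was at 9.49 and 8.76 CPM in the first set and at 41.9, 44.7 and 62.9 CPM in the second. WNT5B was at 12.1 and 8.95 against 52.2, 49.6 and 50.2 CPM, and WNT11 at 15.5 and 19.6 against 41.6, 38.5 and 42.3 CPM. WNT3 (6.68 and 6.78 against 8.94 to 9.08 CPM), WNT6 (0.429 and 0.646 against 1.44 to 2.14 CPM) and WNT2B (3.24 and 4.01 against 4.58 to 7.77 CPM) split the same way. WNT5A was slightly the other way, at 71.3 and 84.8 against 62.0, 64.9 and 65.7 CPM. WNT8A was also the other way (0.191 and 0.461 against 0.0799 to 0.104 CPM), at 10 counts or fewer per well. WNT3A and WNT4 overlapped between the sets. The summed TPM of the 5 endoderm and liver markers was 2189 and 4081 in wells 1 and 2 and 46.3 to 54.6 in the other 3. That of the 5 fibroblast and epicardium markers was 314 and 595 against 40.6 to 53.0. The endothelium markers (49.8 and 65.3 against 19.3 to 25.9) and the 4 pluripotent markers (52.5 and 44.3 against 14.7 to 17.4) split the same way. The 5 cardiomyocyte markers split the other way, at 4185 and 2547 against 5106 to 6084. Wells 1 and 2 also had lower RNA integrity scores (8.6 and 8.0 against 9.5, 9.2 and 9.4) and fewer counts (18014203 and 19060126 against 23631168 to 31323325). The part of the cell mixture and of RNA quality in the ligand levels was not tested. Without wells 1 and 2, the step from day 11 to day 14 had 3 calls, WNT2 (-2.12, adjusted p = 0.0126), WNT5B (-1.46, adjusted p = 0.0151) and WNT11 (-1.23, adjusted p = 0.00598), where it had 0 with all wells. WNT11 alone was also called without well 1 of day 11 (-1.05, adjusted p = 0.0445) or well 3 of day 14 (-1.14, adjusted p = 0.0471). The day 14 wells had 1415 to 2147 TPM of the same endoderm and liver markers, far from wells 5, 6 and 7 of day 11.

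At day 90 well 4 differed from wells 2 and 5 in both classes. It had less WNT3 (2.71 against 14.7 and 15.5 CPM), WNT4 (0.209 against 5.83 and 4.26 CPM) and WNT6 (0.0696 against 5.47 and 5.71 CPM). It had more WNT5A (85.2 against 41.4 and 46.3 CPM), WNT5B (74.4 against 23.2 and 24.9 CPM) and WNT11 (24.1 against 12.6 and 10.2 CPM). Summed TPM of the fibroblast and epicardium markers was 49.4 in well 4 and 264 and 139 in wells 2 and 5, and that of the cardiomyocyte markers 8267 against 4724 and 4444. The endoderm and liver markers were higher in well 4 (34.0 against 2.35 and 2.14). Well 4 was in lane 4 with an RNA integrity score of 9.5. Wells 2 and 5 were both in lane 5, with scores of 8.8 and 8.0. The parts of the cell mixture, the lane and RNA quality in these differences were not tested. WNT3 was called higher at day 90 than at day 30 (1.26, SE 0.29, adjusted p = 0.00474) although the wells overlapped. That call was lost without well 2 (1.01, adjusted p = 0.0504) or well 5 of day 90 (0.94, adjusted p = 0.0699). It was also lost with lane as a term (1.03, adjusted p = 0.0621) and with only the groups compared (1.25, adjusted p = 0.524). With limma on log2(TPM + 1) it was lost as well (0.07, adjusted p = 0.849). On TPM WNT3 was at 0.967 ± 0.517 at day 90 and 0.837 ± 0.310 at day 30 (SD, n = 3 each). Between these days TPM scaling moved the median of well-expressed genes by -0.81 on the log2 scale, compared with TMM. WNT6 became a call for day 90 against day 9 without well 4 of day 90 (2.52, adjusted p = 0.0370) or well 10 of day 9 (2.61, adjusted p = 0.0417). The count of members called there was 3 to 6 over the fits that leave out 1 well, beside 5 with all wells.

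**Figure D4:**
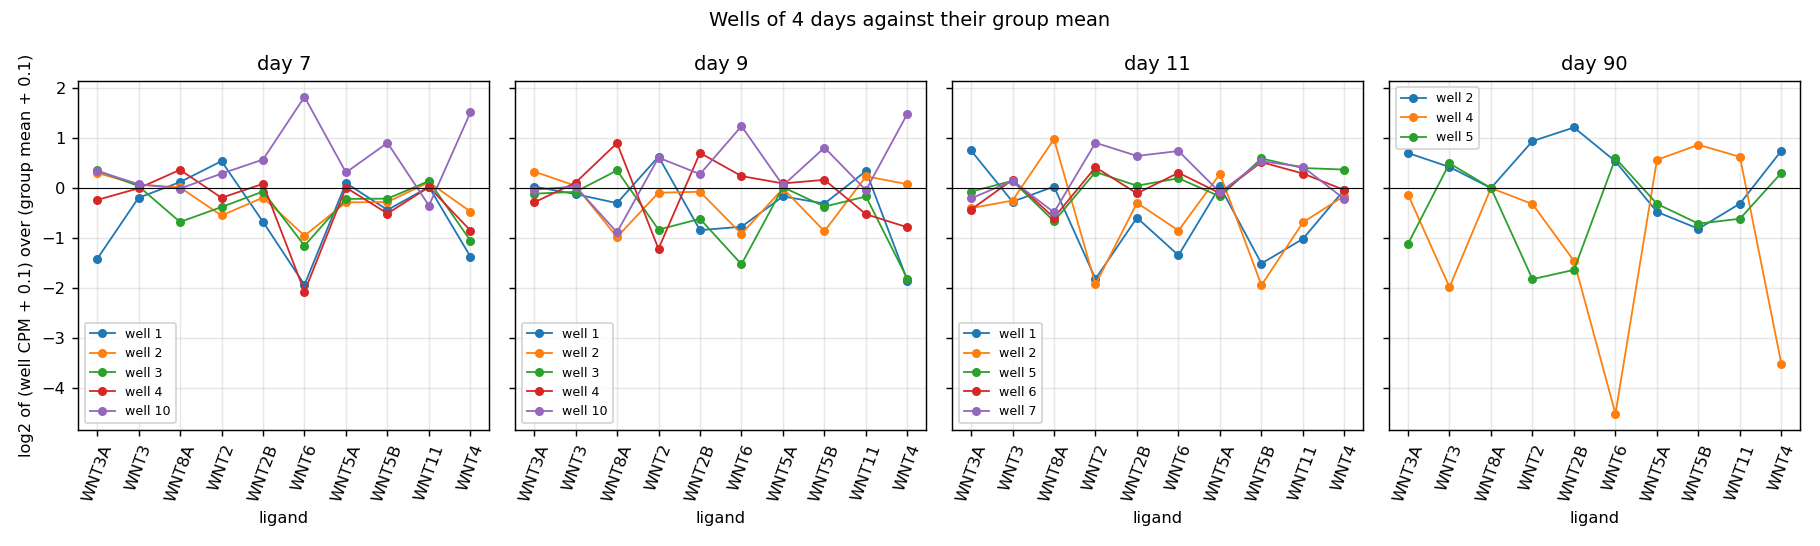
Each well of days 7, 9, 11 and 90 against its group mean, as log2 of (CPM + 0.1) over (mean + 0.1), for the 10 ligands on the x axis. Well 10 is high for WNT6 and WNT4 at days 7 and 9, wells 1 and 2 are low for WNT2, WNT5B and WNT11 at day 11, and well 4 is low for WNT6, WNT4 and WNT3 at day 90.

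The genes that act with the ligands were counted in 5 lists. The remaining 9 Wnt ligands were low, and WNT1 did not pass the filter. At day 1, 1 of the 8 tested was called, beside 3.86% of all genes called higher and 9.66% lower. This was WNT10B, which rose from 0.07 to 5.38 CPM (6.21, SE 0.97, adjusted p = 8.90e-06). It fell again at day 3 (-3.42, SE 0.80, adjusted p = 0.00114). WNT9B was the 1 of these 8 to rise at day 3 (2.55, SE 0.96, adjusted p = 0.0432), where 11% of all genes were called higher and 6.8% lower. From day 0 to day 9, 2 rose and 2 fell, beside 17.1% and 14.6% of all genes. At day 90 against day 9, 4 were higher and 1 lower, beside 11.9% and 12% of all genes. WNT10A rose most (8.03, SE 1.13, adjusted p = 1.62e-06), to 5.12 CPM.

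For secretion, WLS, the carrier that takes lipid-modified Wnt proteins to the cell surface, rose in 3 consecutive steps. Its mean was 1.80 ± 0.334 CPM in pluripotent wells, 7.93 ± 0.602 CPM at day 0, 120 ± 11.2 CPM at day 1 and 282 ± 67.9 CPM at day 3 (SD, n = 3 each). The steps were 2.14, 3.92 and 1.23 (SE 0.25, 0.25 and 0.23, adjusted p = 1.17e-06, 4.28e-14 and 5.57e-05). From day 5 on its group means lay between 97.6 and 176 CPM. PORCN, the enzyme that IWP2 inhibits, was between 5.78 and 11.3 CPM in all 12 groups and was not called in any comparison. NOTUM, which removes the lipid and so inactivates Wnt proteins, rose at day 1 (4.60, SE 0.56, adjusted p = 9.43e-08) and fell at day 5 (-2.64, SE 0.43, adjusted p = 1.77e-05). Of the 7 genes of this list 3 rose at day 1, with a median of 0.25, beside 3.86% of all genes called higher.

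Among the 10 Frizzled receptors 2 rose and 2 fell at day 1 (median -0.16), where 3.86% of all genes were called higher and 9.66% lower. At day 3, 4 rose and 1 fell (median 0.38), where the shares of all genes were 11% and 6.8%. FZD10 rose most at day 1 (5.71, SE 0.74, adjusted p = 2.96e-07) and FZD5 fell most (-2.97, SE 0.53, adjusted p = 6.51e-05). At day 3 FZD2 (2.37, SE 0.31, adjusted p = 1.73e-07) and FZD4 (2.20, SE 0.30, adjusted p = 5.11e-07) rose, while FZD10 fell again (-2.80, SE 0.63, adjusted p = 0.000744). From day 0 to day 9, 5 rose and 2 fell (median 0.94), beside 17.1% and 14.6% of all genes, and from day 9 to day 90, 1 rose and 4 fell (median -0.83), beside 11.9% and 12%. The receptor that rose to day 90 was FZD1, from 13.3 to 26.5 CPM in the 5 wells of day 9 to 386, 468 and 707 CPM, a difference of 4.77 (SE 0.33, adjusted p = 3.38e-14). FZD4 fell over the same span by -2.67 (SE 0.29, adjusted p = 2.07e-09).

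Among the 11 canonical co-receptors and the genes that control their turnover, 2 rose and 1 fell in each of the steps to day 1 and day 3 (medians 0.18 and 0.29), beside the same shares of all genes as for the Frizzled receptors. LGR5, a receptor for the R-spondins that keep Frizzled at the surface, rose at day 3 (5.82, SE 0.55, adjusted p = 1.34e-10) to 86.4 ± 22.1 CPM (SD, n = 3). It fell at day 5 (-1.23, SE 0.38, adjusted p = 0.0202) and day 7 (-2.70, SE 0.36, adjusted p = 1.22e-06). LRP5 and LRP6, the co-receptors themselves, were not called in any of the 11 steps. From day 0 to day 9, 6 of the 11 rose (median 1.15), beside 17.1% of all genes called higher, led by the R-spondin gene RSPO3 (3.96, SE 0.49, adjusted p = 1.57e-08).

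Among the 11 non-canonical co-receptors and polarity genes 4 rose and 1 fell at day 1 (median -0.01), beside 3.86% and 9.66% of all genes, and 2 rose and 1 fell at day 3 (median 0.30), beside 11% and 6.8%. ROR2, a receptor of WNT5A, rose at day 1 (2.38, SE 0.28, adjusted p = 3.30e-08) and day 3 (1.03, SE 0.26, adjusted p = 0.00267) and fell at day 5 (-1.05, SE 0.23, adjusted p = 0.000951). VANGL1, a membrane protein of the planar polarity pathway, rose at day 1 (2.47, SE 0.30, adjusted p = 6.50e-08) and fell at day 3 (-1.17, SE 0.28, adjusted p = 0.00164). In the later steps, from day 7 on, at most 1 gene of this list was called per step.

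**Figure D5:**
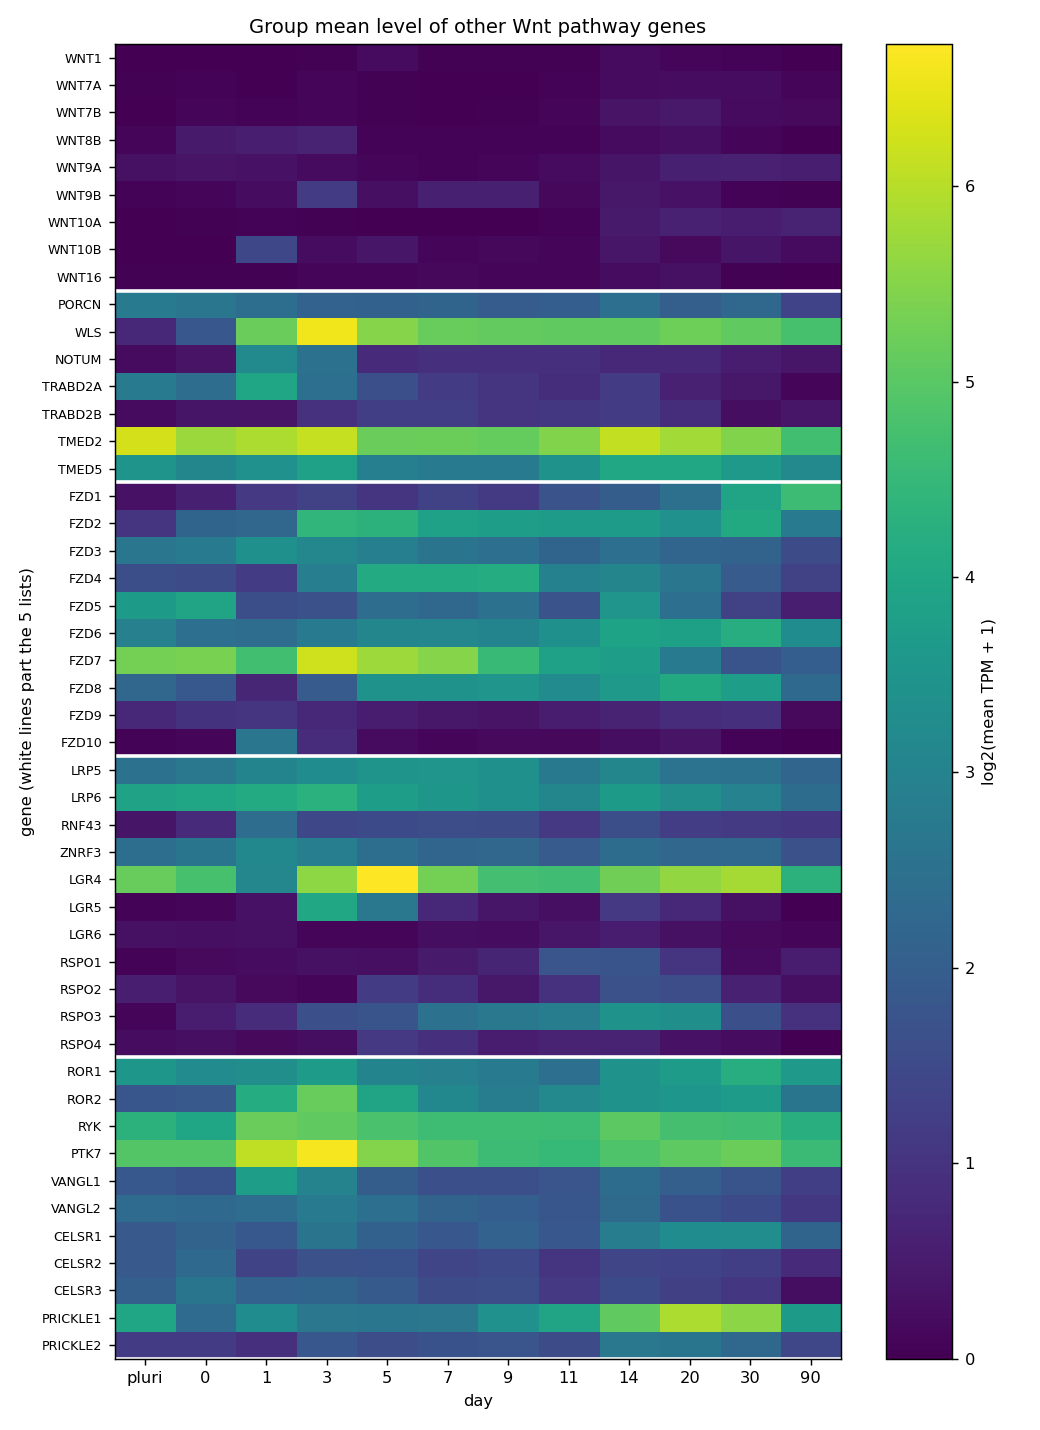
Group mean level of 48 other genes of the pathway as log2(mean TPM + 1), by day on the x axis, with white lines between the lists of other ligands, secretion, Frizzled receptors, canonical co-receptors and non-canonical co-receptors. The other ligands stay dark, WLS turns bright from day 1 on, LGR5 is bright at days 3 and 5, and FZD1 at days 30 and 90.

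Some members shared a course over the 12 group means on log2(CPM + 0.1). Pearson's r was 0.95 for WNT3A with WNT8A, 0.89 for WNT2 with WNT11 and 0.86 for WNT5A with WNT11, and -0.54 for WNT3A with WNT2. Among 7644 protein-coding genes of sufficient level, the one most like WNT5A was PLXNA2 (r = 0.98), followed by FOXC1, a transcription factor of mesoderm (r = 0.98). For WNT11 it was GALC (r = 0.98), for WNT2 TSC22D1 (r = 0.96), for WNT3 ZNF518B (r = 0.95) and for WNT5B SMYD2 (r = 0.93). EOMES, a transcription factor of the primitive streak, was the 2nd for WNT3A (r = 0.92) and the 3rd for WNT8A (r = 0.90). These values are over group means that share their libraries, and are descriptions.

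Promoter windows from RefSeq, 250 bases before the start, were found for 9 of the 10 members, and WNT11 had none. The letters CTTTGAT or CTTTGAA (TCF/LEF, searched on both strands) or TCACACCT (T-box) occurred in 0 of their 12 windows, beside 5.94% and 0.786% of 35116 windows in all. This says only that these letters are not in these stretches.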

How the data were processed

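RNA of 44 wells was measured. Per the submitters' processing notes, reads were handled with cutadapt, STAR 2.5.2b and RSEM 1.2.31 on hg38; their roles, settings and use of strand are not given in the sources used here. Per the labels' protocols, libraries were stranded total RNA, 150 bp paired-end, 10 per lane. The authors deposited estimated counts per gene, unscaled, and TPM per gene. They also deposited a table with the RNA integrity score (7.4 to 10), the lane (5 lanes) and a batch that is 1 for all libraries. The series text gives 3 wells for day 11 and the labels 5, and all 5 were used.

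Symbols and coordinates come from GENCODE 29 (GRCh38), where 56769 of 60499 identifiers were found. Counts were rounded, filtered with filterByExpr, scaled by TMM and fitted with edgeR 4.0.16 (R 4.3.3), 1 mean per group over all 44 libraries, with the quasi-likelihood test and Benjamini-Hochberg adjustment. Of the 13 comparisons 11 are steps between neighbouring groups. limma 3.58.1 and DESeq2 1.42.0 were used for alternatives. Intervals and floors cover counting error only. The edgeR fit was tried on simulated counts with known folds for day 3 against day 1 only, at a single fixed spread. Genes of low level were not among those changed, so the simulation does not cover them or the other comparisons. All 10 members are named. Of each other list at most the 2 largest called rises and falls per comparison are named, with further members given by level or as not called. Genes most like a member were taken by Pearson's r among protein-coding genes with a group mean of at least 10 TPM. The members and lists were chosen with earlier results of these data known.

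Among comparisons with at least 3 same-numbered pairs, wells deviated together in every pair for day 0 against pluripotent cells only. There r was 0.12 to 0.51 over 3 pairs, from the data, not the labels. Day 9 against day 7 had 0.0075 to 0.77 over 5 pairs. Day 20 against day 14 had 0.44 to 0.66 and day 14 against day 11 had 0.20 to 0.43, over 2 pairs each. Day 90 against day 9 had 0.14 to 0.23 over 2 pairs. Every other comparison with pairs had at least 1 negative r. With the replicate number as a block, day 0 against pluripotent cells still called 1 member. Compared with TMM, TPM scaling moved the median of well-expressed genes by -0.81 (day 90 against day 30) to 0.54 (day 14 against day 11) on the log2 scale.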

Additional observations from a re-analysis of the deposited data

Results flagged for a closer look

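Among 44 sets of 5 wells (the level of 1 ligand or the canonical share, on 1 of days 5, 7, 9 and 11), 7 held a well separated from the other 4 by most of the range of the set. Chance alone does so in about 1 in 20 sets of independent, normally distributed values. CPM near the floor are skewed and the ligands share their wells, so that rate is only a guide here. Well 10 of day 7 accounts for 4 of them: WNT6 (5.00 CPM, the others up to 0.646), WNT5B (21.4 CPM, the others up to 9.82), WNT4 (3.28 CPM, the others up to 0.754) and WNT11 (25.2 CPM, the others from 32.6). WNT3A was high in well 3 of day 5 (1.88 CPM, the others up to 1.44) and in well 1 of day 11 (0.429 CPM, the others up to 0.200). WNT4 was high in well 5 of day 11 (1.04 CPM, the others up to 0.763).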

How the results depend on the processing

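Over all settings 2046 values of single members were recomputed; 1983 kept direction and side of the threshold, 40 calls were lost, 23 were gained, 0 reversed, and 105 values that were not called took another sign. Of 33 calls 19 held under every setting run, among them the day 3 rises of WNT8A, WNT5A, WNT11 and WNT4 and the day 5 falls of WNT3A, WNT3, WNT8A, WNT5A and WNT4. The count of members called was 1 at day 0 against pluripotent cells and became 3 with only the groups compared, 2 with DESeq2 (WNT6 added) and 0 with limma on log2(TPM + 1). With limma it became 1 at day 7 against day 5, 0 at day 30 against day 20, 0 at day 90 against day 30 and 2 at day 90 against day 9. With only the groups compared these last 3 counts were 0, 0 and 3. With lane as a term 0 were called at day 90 against day 30, and without the 3 libraries under 12e6 counts 0 at day 30 against day 20. Without wells 1 and 2 of day 11, 3 were called at day 14 against day 11. Leaving out these sets of wells was chosen after seeing the data. Leaving out 1 well in turn gave 0 to 1 at day 14 against day 11, 0 to 1 at day 30 against day 20, 0 to 2 at day 90 against day 30, 2 to 3 at day 7 against day 5 and 3 to 6 at day 90 against day 9. The limma setting understates low genes by its pseudocount of 1 and fitted TPM; the cause of the other changes was not tested.

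The canonical share on CPM in place of TPM was 34.8% (pluripotent), 34.2% (day 1), 36.2% (day 3), 17.9% (day 5) and 22.2% (day 20). With WNT4 counted as canonical it was 43.6%, 46.0% and 21.9% in pluripotent wells, at day 0 and at day 20. The day 3 wells then held 54.8%, 58.0% and 62.4% on TPM and no longer stood apart. Pluripotent well 2 was at 55.1% and well 1 of day 0 at 52.0%.

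The replicate block gained WNT4 at day 1 (-2.29, adjusted p = 0.0194), WNT5B at day 5 (-1.27, adjusted p = 0.0196) and WNT3A at day 7 (-1.64, adjusted p = 0.0437) and changed no other call. The labels link wells of different days by number only, and day 90 and day 30 share 0 numbers. In the data, same-numbered wells of day 9 and day 7 deviated together for well 10 (r = 0.77) and well 4 (0.64), but not for well 3 (0.0075).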
